A study of Homo sapiens with 6 samples.

Results

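The stretch described here is a row of 51 neighbouring genes on the long arm of human chromosome 8, in and around band 8q21, from STAU2 to OTUD6B in chromosomal order. The members were selected on their position and on the log2 difference between the mutated and the parental samples over all 6 arrays, so every value of that difference below is a description of these arrays and carries no test. Of the 51 genes, 50 had a probe set that names the gene as its only symbol, out of 19775 such genes in the table, and UBE2W was not analysed here. These 50 genes had 113 probe sets, of which 85 passed the filter on dim probe sets, and 42 genes were represented among them, of 13644 genes tested in all.

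Total RNA was hybridised to 6 arrays and came from BCWM1, an established human line grown from Waldenström macroglobulinemia, in which malignant B cells mature towards plasma cells. The parental group holds 3 samples of BCWM1 cells, and the mutated group holds 3 samples of BCWM1 cells that the series title ties to the change C1013G of the chemokine receptor gene CXCR4. No treatment or time is labelled, and both groups share the BCWM1 background. The sources used here do not give how the mutated cells were made, whether they are 1 clone or whether a vector control was kept. Nor do they say if the 3 samples of a group came from separate cultures, and the spread between them may be technical.

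Neighbouring genes on a chromosome can differ together between 2 cell populations when the DNA segment that carries them is gained or lost, and they can also share enhancers or a chromatin domain. In the first case the mRNA of many unrelated genes of the segment may move in 1 direction by a modest amount. Genes that are silent in the cell type may stay silent, and genes under feedback control may not follow. The long arm of chromosome 8 is gained in many B cell and plasma cell tumours. These arrays do not measure DNA or chromatin, and neither case was tested here. The genes of this stretch have little in common by function: they include fatty acid carriers, carbonic anhydrases, ubiquitin enzymes, mitochondrial proteins, transcription factors and immune signalling genes.

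Most genes of the stretch that passed the filter had higher mRNA levels in mutated than in parental cells. On the scale log2(intensity + 16), used for every difference below, 33 of the 42 tested members had a positive mean difference, mutated minus parental, and the median difference was 0.37, with quartiles of 0.055 and 0.70. The median over all 13644 tested genes was 0.038, with quartiles of −0.16 and 0.26. A gene was called higher or lower where limma, fitted on all tested probe sets, gave an adjusted p under 0.05. By that rule 28 members were called higher, where 30.1% of all tested genes were, 4 were called lower, where 18.9% were, and 10 were not called. In either direction 32 members were called, where 49% of all tested genes were. The 3 mutated values all lay above the 3 parental values in 29 members, where 36.3% of all tested genes did so, and all lay below in 5, where 24.8% did so. The count of 4 called lower was 2 without parental replicate 1, without parental replicate 3 or without mutated replicate 2. Of all tested genes 15.3% to 15.4% were called lower in these fits.

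**Figure D1:**
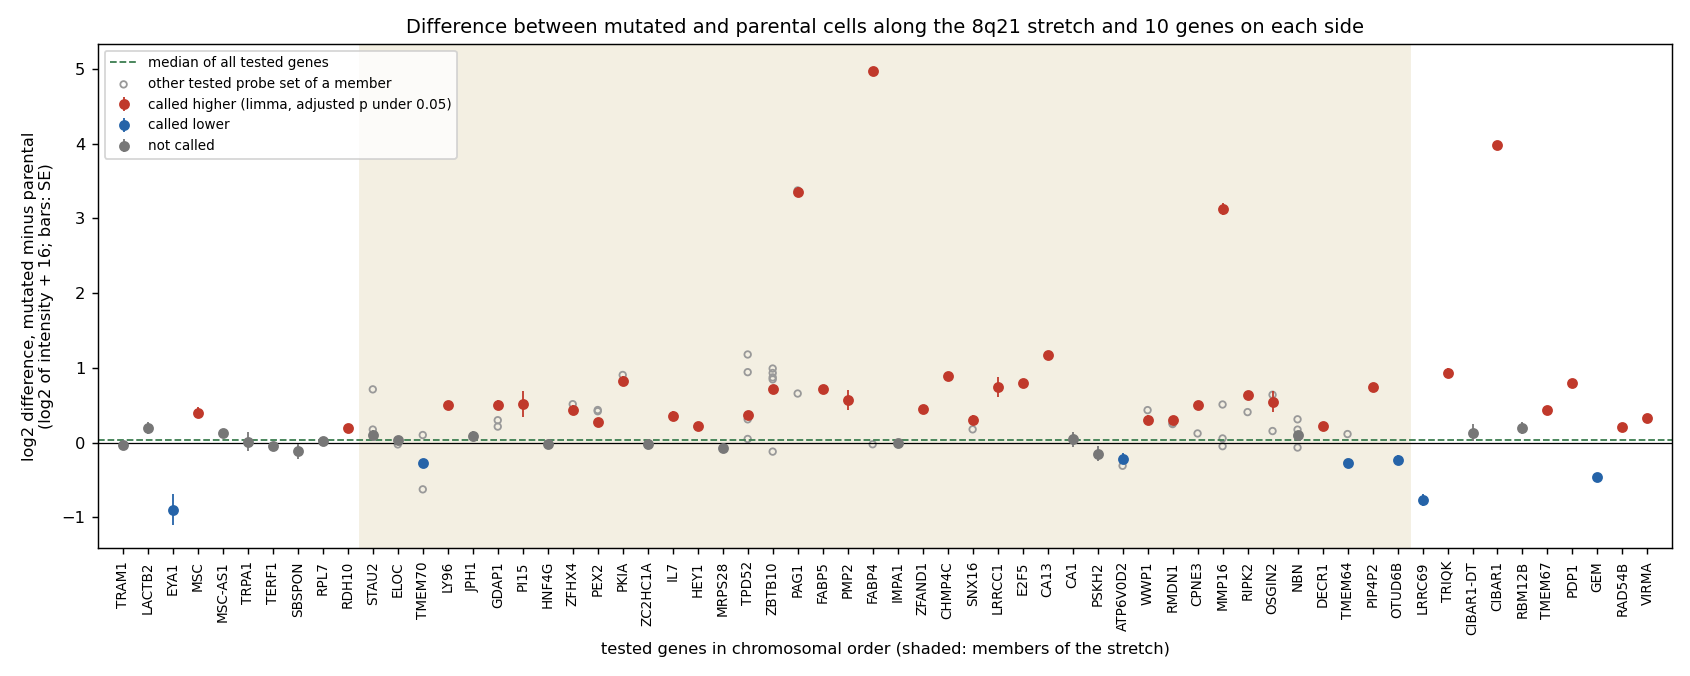
Difference between mutated and parental cells (y axis, log2 scale, bars are the SE of the fit) for the 42 tested members in chromosomal order (shaded) and the 10 tested genes on either side; open circles are other tested probe sets of a member, and other genes within the stretch are not drawn. Most members lie between 0 and 1.2, FABP4, PAG1 and MMP16 lie above 3, and the genes before the stretch, apart from EYA1 and MSC, lie between −0.12 and 0.20.

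The shift was present in each mutated sample. The median over the 42 members of a sample's log2 level minus the parental mean was −0.014, 0.018 and 0.00082 in the 3 parental samples and 0.41, 0.30 and 0.41 in the 3 mutated samples. Over all tested genes the same median was −0.0097, 0.017 and −0.0062 in parental samples and 0.047, 0.030 and 0.049 in mutated samples. The parental samples lay close to 0 in both sets of genes, as their own mean was the reference, and mutated replicate 2 had the smallest shift of the mutated samples in both. In mutated replicates 1, 2 and 3, respectively 31, 32 and 31 of the 42 members were above all parental samples. The median SD of a member within a group was 0.051 in parental and 0.047 in mutated samples on the log2 scale.

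**Figure D2:**
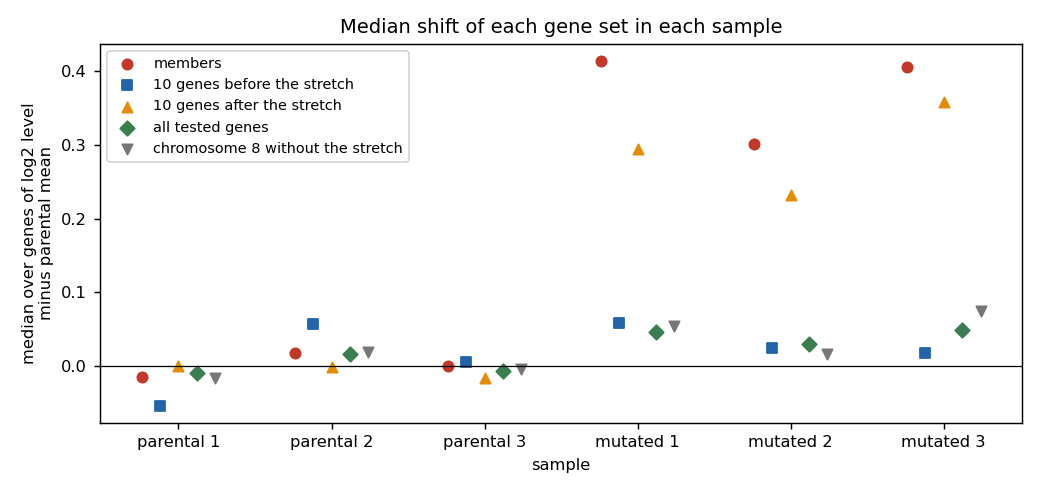
Median over genes of each sample's log2 level minus the parental mean (y axis) in the 6 samples (x axis), for the members, the 10 tested genes before and after the stretch, the rest of chromosome 8 and all tested genes. Members stand at 0.41, 0.30 and 0.41 in the mutated samples and the rest of chromosome 8 at 0.055, 0.016 and 0.074.

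The members did not shift by 1 common amount. Of the 42, 4 had a difference of −0.2 or lower, 5 lay between −0.2 and 0, 5 between 0 and 0.2, 11 between 0.2 and 0.5, 13 between 0.5 and 1, and 4 above 1. On the log2 scale used here, which adds a constant to each intensity, 12 members were at least 1.5-fold higher. Of all tested genes 9.17% reached that size. On the same scale 4 members, PAG1, FABP4, CA13 and MMP16, were at least 2-fold higher, where 3.77% of all tested genes were. All of these but PAG1 had a parental mean under the limit of the filter on dim probe sets and passed it through their mutated values. By the ratio of mean intensities PMP2 (1.93) and PI15 (1.64), which are not among the 12, also exceeded 1.5-fold. The distance between the quartiles was 0.64 for the members and 0.42 for all tested genes. For orientation, a gain from 2 to 3 copies would give a log2 difference of 0.58 if mRNA followed gene number and the array read it in full. For dim genes that value would be smaller, as the constant added to each intensity shrinks differences. DNA copy number was not measured here, and its part in these differences was not tested.

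Of the tested members, 4 had a parental mean under the intensity of 18.0 that corresponds to the filter limit and passed through their mutated values: PMP2, FABP4, CA13 and MMP16. All 4 are among the members called higher, and FABP4, CA13 and MMP16 are also among the 12 at least 1.5-fold higher. The median of the other 38 was 0.31. Without the filter, the median over all 50 measured members was 0.29, against 0.021 for all 19775 genes. The 8 members that did not pass the filter were CRISPLD1, STMN2, ZNF704, RALYL, CA3, CA2, CALB1 and NECAB1. Their 15 probe sets had sample values from 1.00 to 33.4 and differences from −0.16 to 0.20, and the groups overlapped in 14 of them. STMN2, RALYL, CALB1 and NECAB1 are best known from nerve cells.

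**Figure D3:**
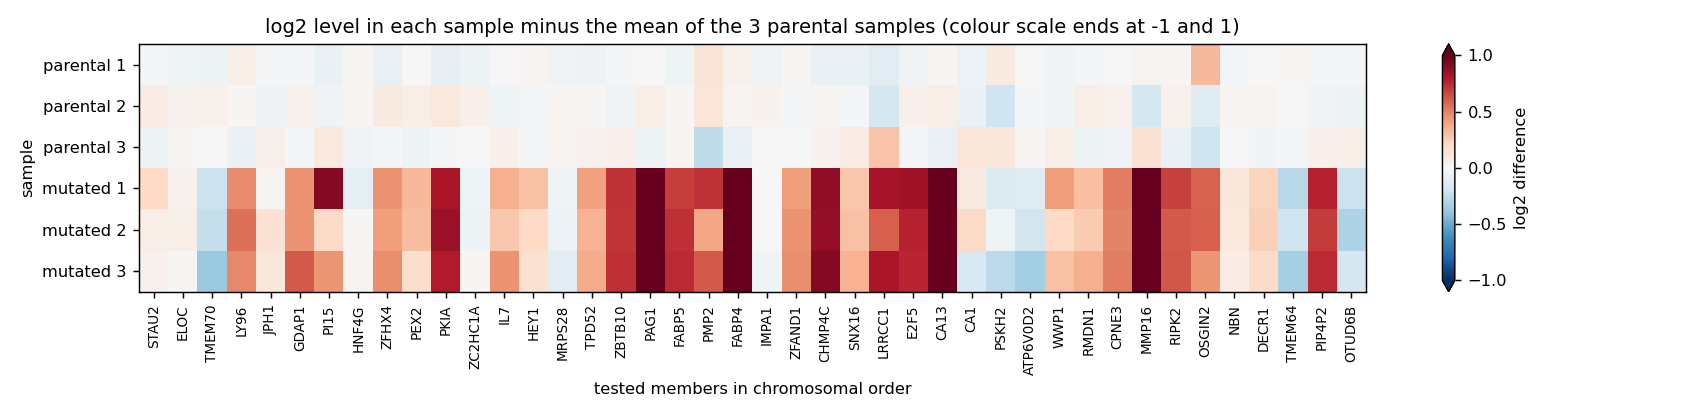
Level of each tested member (x axis, chromosomal order) in each of the 6 samples (y axis), as log2 level minus the mean of the 3 parental samples; red is above and blue below that mean, and the colours saturate at −1 and 1. The mutated samples are red in most columns, with blue or pale columns such as TMEM70, HNF4G, ZC2HC1A, IMPA1, ATP6V0D2, TMEM64 and OTUD6B between them.

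The immune and signalling genes of the stretch were 8 in number, all tested, of which 6 were called higher, 0 lower and 2 not called. Of all tested genes 30.1% were called higher and 18.9% lower, and these shares also stand beside the counts by function and gene family below. Such counts describe few genes of a selected stretch and were not tested as classes. PAG1, an adaptor in lipid rafts that recruits the kinase CSK and so restrains SRC family kinases at antigen receptors, had intensities of 89.1, 93.5 and 85.4 in parental and 1119, 1028 and 1049 in mutated samples. Every mutated sample was more than 10 times above every parental sample in this probe set, with a log2 difference of 3.36 (SE 0.057). The other 2 tested probe sets of PAG1 gave 3.37 and 0.66, and in each the mutated values all lay above the parental values.

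RIPK2, the kinase that carries signals from the NOD receptors of bacterial cell wall fragments to NF-kB, read 1822, 1852 and 1709 in parental and 2896, 2750 and 2763 in mutated samples. The groups were clearly apart, by 0.64 (SE 0.054), and the other probe set gave 0.41. LY96 encodes MD-2, the partner of the endotoxin receptor TLR4. Its intensities were 849.9, 826 and 778 in parental and 1142, 1202 and 1144 in mutated samples, a difference of 0.50 (SE 0.055) with no overlap. IL7, a growth factor of lymphocyte precursors, read 1189, 1157 and 1241 in parental and 1536, 1446 and 1638 in mutated samples. The lowest mutated value was above the highest parental value, and the difference was 0.36 (SE 0.063).

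PKIA, which encodes an inhibitor of cAMP-dependent protein kinase, had 189, 219 and 201 in parental and 369, 381 and 364 in mutated samples. Its 2 probe sets gave 0.82 and 0.90, both without overlap. TPD52, a vesicle-associated protein abundant in B and plasma cells, read 3643, 3812 and 3886 in parental and 5025, 4818 and 4880 in mutated samples, a difference of 0.38 (SE 0.050). Its 5 tested probe sets ran from 0.048 to 1.18, and 4 of them showed no overlap. IMPA1, an enzyme that recycles inositol (−0.0095), and the kinase gene PSKH2 (−0.15) were not called, and their groups overlapped.

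**Figure D4:**
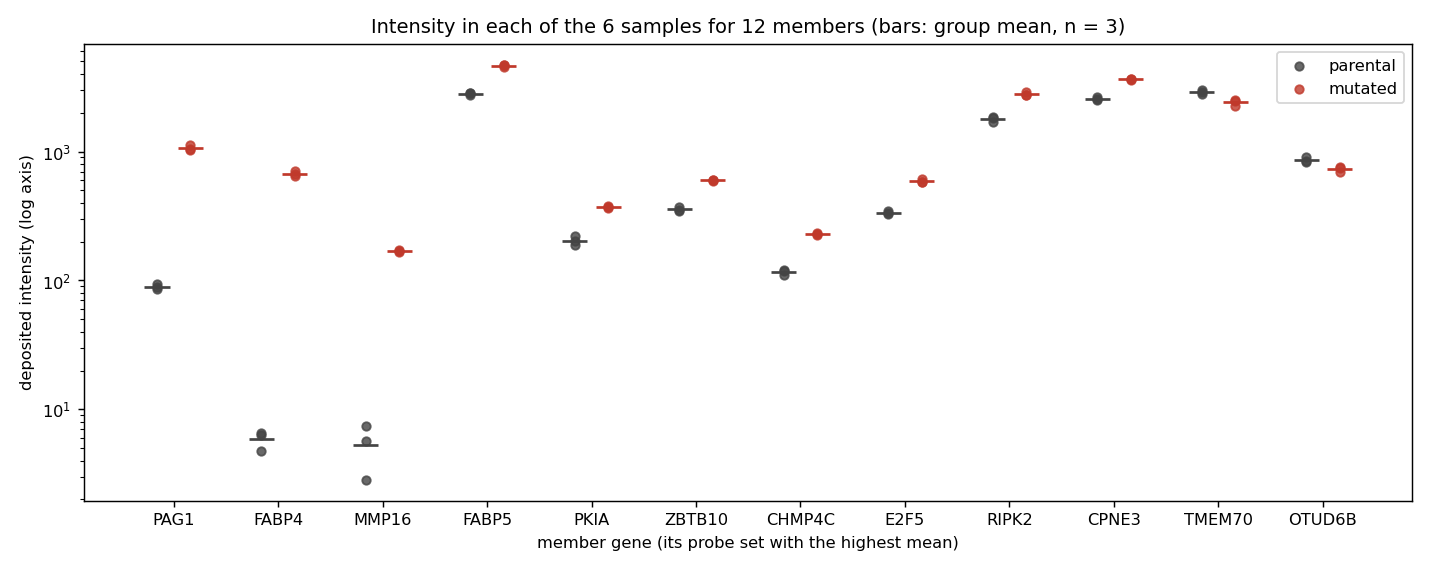
Deposited intensity (y axis, log scale) in each of the 3 parental and 3 mutated samples for 12 members, drawn as points with a bar at the group mean. The groups are apart in all 12 genes, with mutated samples above parental samples in 10 and below in TMEM70 and OTUD6B.

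The 3 fatty acid carrier genes among the members, FABP5, PMP2 and FABP4, follow each other among the tested genes. All were called higher, as were 30.1% of all tested genes. FABP4, the carrier of fat cells and macrophages, had 6.54, 6.33 and 4.78 in parental and 666, 701 and 643 in mutated samples. Its parental values were under the filter limit, so the difference of 4.97 (SE 0.059) depends on the pseudocount. The other tested probe set of FABP4 read 24.6 to 33.05 in parental and 25.4 to 31.4 in mutated samples and showed no difference of that kind (−0.023). FABP5, the carrier of skin and many immune cells, read 2737, 2851 and 2854 in parental and 4547, 4672 and 4718 in mutated samples, a difference of 0.72 (SE 0.047) without overlap. FABP5 has near-identical processed copies elsewhere in the genome, and its only probe set has the suffix _s_at, which marks probes shared by several transcripts, so its value is uncertain. PMP2, a carrier of myelin, was dim in every sample, at 20.0, 19.9 and 11.7 in parental and 38.3, 27.1 and 34.4 in mutated samples (difference 0.57, SE 0.13).

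Relatives of this family outside the stretch moved in different directions. Of 13 genes listed for the family, 9 had a probe set and 7 were tested: FABP4, FABP5, PMP2 and FABP6 (1.36) were called higher, FABP7 (−0.58) was called lower, and FABP3 (−0.017) and CRABP2 (−0.17) were not called. FABP4 is also a marker of fat cells, blood vessel cells and macrophages. Of 8 adipocyte markers, the 4 others than FABP4 that define the type, ADIPOQ, PLIN1, LEP and PPARG, did not pass the filter, and ADIPOQ read 3.01 to 10.8 in parental and 2.05 to 9.13 in mutated samples. CIDEC was called lower (−0.47), and LPL (−0.24) and CD36 (−0.30) were not called. The summed level of the 8 was 193 to 212 in parental and 781 to 872 in mutated samples, FABP4 included. Of 6 endothelial markers, CDH5, VWF, KDR, TEK and CLDN5 did not pass the filter and PECAM1, which leukocytes also carry, was called higher (0.72), with summed levels of 361 to 366 in parental and 561 to 623 in mutated samples. Of the 6 myeloid markers, 5 had a probe set, 3 were tested and 0 were called, and CD14 read 1.29 to 3.68 in parental and 1.11 to 6.96 in mutated samples, with summed levels of 90.5 to 112 and 79.0 to 98.2.

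Carbonic anhydrases convert carbon dioxide and water to bicarbonate, and 4 of their genes, CA13, CA1, CA3 and CA2, lie side by side in the stretch. CA13 read 17.6, 18.5 and 15.6 in parental and 56.7, 60.5 and 58.5 in mutated samples. Its mutated values all lay above its parental values, with a difference of 1.17 (SE 0.055) from a parental level under the filter limit. CA1, the red cell enzyme, was not called, and its difference was 0.042, or −0.037 with median centring. CA2, whose values ran from 13.1 to 18.3 in parental and from 16.6 to 20.2 in mutated samples, and CA3 did not pass the filter. Of the 15 genes listed for the whole family, 9 were tested. CA13 and CA10 (0.64) were called higher, CA10 also from a parental mean (17.3) under the filter limit. CA4 (−0.52), CA11 (−0.45) and CA12 (−0.34) were called lower, and 4 were not called.

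Transcription factor genes numbered 6 in the stretch and 5 of them were tested, with 4 called higher and 0 lower (30.1% and 18.9% of all tested genes). ZBTB10, a zinc finger repressor, read 353, 348 and 369 in parental and 598, 594 and 603 in mutated samples, a difference of 0.72 (SE 0.047). Of its 6 tested probe sets, 5 showed no overlap between groups and gave 0.72 to 0.99, and the remaining probe set gave −0.12. E2F5, a repressor of the E2F family that restrains cell cycle genes, had 326, 346 and 331 in parental and 612, 581 and 578 in mutated samples. The groups were far apart relative to their spread, with a difference of 0.79 (SE 0.051). ZFHX4, a large homeodomain factor, was higher by 0.44 and 0.51 on its 2 tested probe sets. HEY1, a repressor downstream of Notch receptors, read 1566, 1525 and 1520 in parental and 1887, 1765 and 1714 in mutated samples, a difference of 0.22 (SE 0.054). Without parental replicate 2, parental replicate 3 or mutated replicate 1, HEY1 was not called (0.21, 0.21 and 0.18), nor was it with median centring (0.14). HNF4G, a nuclear receptor of gut and liver, did not differ beyond its spread (−0.020).

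Among 7 genes of membrane traffic and vesicles, all tested, 5 were called higher and 2 lower (30.1% and 18.9% of all tested genes). CHMP4C, a subunit of the ESCRT-III machinery that cuts membranes at the end of cell division, read 110.2, 118 and 120.3 in parental and 228, 227 and 234 in mutated samples, a difference of 0.89 (SE 0.051). CPNE3, a copine that binds membranes when calcium rises, had 2545, 2629 and 2502 in parental and 3656, 3617 and 3645 in mutated samples. Its brightest probe set gave 0.51 without overlap, and the other gave 0.12 with overlap. PIP4P2, a phosphatase of phosphoinositides, read 355, 354 and 374 in parental and 628, 597 and 616 in mutated samples, a difference of 0.74 (SE 0.049).

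ZFAND1, a stress granule factor, read 1063, 1037 and 1058 in parental and 1411, 1444 and 1457 in mutated samples (0.44, SE 0.045). SNX16, an endosomal sorting nexin, was higher by 0.31 on the probe set that represents it, and its other tested probe set gave 0.18 with overlap. With quantile normalization SNX16 was not called (0.11). In the other direction, TMEM64, a membrane protein that regulates calcium handling and Wnt signalling, read 869, 855 and 852 in parental and 706, 746 and 679 in mutated samples, a difference of −0.27 (SE 0.053). The groups did not overlap, but its 3 tested probe sets disagreed in sign and their mean was not called (−0.14). ATP6V0D2, a subunit of the proton pump of osteoclasts and macrophages, was dim and lower by 0.21 and 0.31 on its 2 tested probe sets. That call was lost when any sample other than mutated replicate 1 was left out (−0.25 to −0.15), without the filter (−0.21), with a pseudocount of 64 (−0.12) and with a trended robust eBayes (−0.21).

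Ubiquitin and peroxisome genes went both ways. WWP1, a HECT-type ubiquitin ligase, read 728, 726 and 772 in parental and 997, 856 and 911 in mutated samples, and its 2 probe sets gave 0.30 and 0.43. PEX2, a ubiquitin ligase subunit needed to import enzymes into peroxisomes, was higher on all 3 of its tested probe sets (0.27 to 0.44). With median centring PEX2 was not called (0.19). OTUD6B, a deubiquitinase and the last member of the stretch, had 851, 829 and 905 in parental and 742, 691 and 764 in mutated samples, a difference of −0.23 (SE 0.061). Its mutated values all lay below its parental values, and the call was lost without parental replicate 1 (−0.24), parental replicate 3 (−0.20) or mutated replicate 2 (−0.19). ELOC, elongin C, which bridges cullin ligases to their substrate receptors, was not called (0.037), with −0.042 under median centring.

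The 4 mitochondrial genes were also divided. GDAP1, a protein of mitochondrial fission, read 210.3, 219.8 and 209.8 in parental and 297, 298 and 335 in mutated samples, a difference of 0.50 (SE 0.062). Its other tested probe sets gave 0.30 without overlap and 0.21 with overlap. DECR1, an enzyme of the breakdown of unsaturated fatty acids, was higher by 0.22 without overlap, but not called with median centring (0.14). TMEM70, an assembly factor of ATP synthase, read 2818, 3010 and 2923 in parental and 2506, 2469 and 2249 in mutated samples, a difference of −0.28 (SE 0.061). The groups were apart on 2 of its 3 tested probe sets (−0.28 and −0.63), while the dimmest gave 0.10 with overlap. MRPS28, a protein of the mitochondrial ribosome, had mutated values all below parental values by a small margin (−0.072) and was not called.

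MMP16, a membrane-bound matrix protease and 1 of 3 secreted or matrix genes of the stretch, read 5.70, 2.83 and 7.48 in parental and 172, 170.0 and 166 in mutated samples. Its difference of 3.13 (SE 0.085) starts from values under the filter limit, and its other tested probe sets gave 0.51, 0.055 and −0.049. PI15, a secreted protease inhibitor, read 39.5, 40.5 and 46.2 in parental and 93.9, 50.4 and 62.9 in mutated samples. The mutated samples of PI15 were widely spread, and its call (0.52, SE 0.18) was lost when any sample other than mutated replicate 1 or 2 was left out (0.49 to 0.57), with quantile normalization (0.38), with median centring (0.44), with a pseudocount of 1 (0.66) and without the filter or with array weights (0.52 and 0.53). Without mutated replicate 1 the difference of PI15 was 0.32.

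Of the genes with a role in the genome, the centrosome or the cytoskeleton, LRRCC1, a centrosomal protein, read 35.8, 33.7 and 52.4 in parental and 83.0, 69.0 and 82.9 in mutated samples (0.75, SE 0.13). RMDN1, a protein that associates with microtubules, was higher on all 3 of its probe sets (0.25 to 0.31). NBN, the sensor subunit of the complex that repairs DNA double-strand breaks, read 5235, 5360 and 5273 in parental and 5708, 5692 and 5570 in mutated samples. Its groups did not overlap, yet the difference was small (0.097) and not called, and its 5 tested probe sets ran from −0.067 to 0.31. OSGIN2 was higher by 0.55 (SE 0.14), with parental replicate 1 above the other parental samples at 371 against 269 and 254. Its call was lost without parental replicate 2 (0.48), parental replicate 3 (0.45), mutated replicate 1 (0.52) or mutated replicate 2 (0.52). The other 2 tested probe sets of OSGIN2 gave 0.64 (SE 0.048, called higher) and 0.15 (not called), both without overlap. The brightest probe set of STAU2, which carries mRNA in neurons, gave 0.10 and was not called, while its other 2 gave 0.71 without overlap and 0.17 with overlap, and the mean over the 3 was 0.33 and called higher. ZC2HC1A was not called (−0.024), nor was JPH1, a junction protein of muscle membranes, whose 0.094 became −0.023 with quantile normalization.

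Agreement between probe sets of a gene was partial. Of the 23 members with more than 1 tested probe set, 14 had only positive and 2 only negative differences, and 7 were mixed in sign. The probe sets of 7 members differed by more than 0.5 and those of 5 by more than 1, namely TPD52, ZBTB10, PAG1, FABP4 and MMP16. Counted by probe set, 54 of 85 had mutated values all above parental values, where 36.3% of all tested probe sets did, 8 had them all below and 23 overlapped. The median over these 85 was 0.31 and over all tested probe sets 0.060.

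Along the chromosome the higher members came in runs that were broken by genes that did not follow. The longest run of neighbouring tested members without overlap in the higher direction held 8 genes, from WWP1 to DECR1. A run of 6 reached from TPD52 to FABP4, and after IMPA1 another run of 6 reached from ZFAND1 to CA13. Other tested genes lie between these members by the RefSeq order, and 9 of them belong to the stretch without being members. Of these 9, 5 were called higher (30.1% of all tested genes), 1 lower (18.9%) and 3 not called, with a median of 0.30. The called ones were LINC01607 (0.97), CNBD1 (0.70), ZFHX4-AS1 (0.58), PARAIL (0.54), RBIS (0.30) and, lower, C8orf88 (−0.29). CNBD1 had a parental mean of 12.3, under the filter limit, and passed through its mutated values. LINC01607 read 23.6, 26.9 and 22.2 in parental and 66.6, 67.0 and 54.9 in mutated samples, and RBIS, a ribosome assembly factor, 3045, 3105 and 3078 against 3694, 3773 and 3874. Those not called were LINC01111 (0.11), REXO1L1P (0.10) and OTUD6B-AS1 (0.056).

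At the near end, STAU2 (0.10 on its brightest probe set and 0.33 as the mean over 3) and ELOC (0.037) lie just inside the stretch, followed among tested members by TMEM70 (−0.28) and LY96 (0.50), and just outside it lie RDH10, a retinol dehydrogenase (0.19), and RPL7, a ribosomal protein (0.017). The 10 tested genes before STAU2 had a median of 0.015, with 2 called higher, 1 lower and 7 not called. Of all tested genes 30.1% were called higher and 18.9% lower. MSC, a transcription factor of activated B cells, was called higher (0.40) and EYA1 lower (−0.90). EYA1 was dim, with parental values of 18.88, 39.28 and 37.25 and a mutated mean of 9.44 under the filter limit, so its difference depends on the pseudocount. TRAM1 (−0.036), LACTB2 (0.20), MSC-AS1 (0.13), TRPA1 (0.012), TERF1 (−0.045) and SBSPON (−0.12) were not called. The median of these 10 changed sign with the scaling, to −0.037 with quantile normalization and −0.064 with median centring.

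At the far end the higher levels did not stop with the last member. Inside it lie PIP4P2 (0.74) and OTUD6B (−0.23), and outside it LRRC69 (−0.77) and TRIQK (0.94). The 10 tested genes after OTUD6B had a median of 0.27, with 6 called higher, 2 lower and 2 not called. Of all tested genes 30.1% were called higher and 18.9% lower. CIBAR1, a protein that shapes membranes at the cilium, read 47.1, 43.9 and 42.6 in parental and 990.5, 924 and 897 in mutated samples, a difference of 3.98. PDP1, which activates pyruvate dehydrogenase (0.79), TMEM67, a ciliary membrane protein (0.43), VIRMA, a subunit of the complex that methylates adenine in mRNA (0.34), and RAD54B, a recombination factor (0.21), were also called higher. GEM, a small GTPase, was called lower (−0.46), and RBM12B (0.19) and CIBAR1-DT (0.13) were not called.

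**Figure D5:**
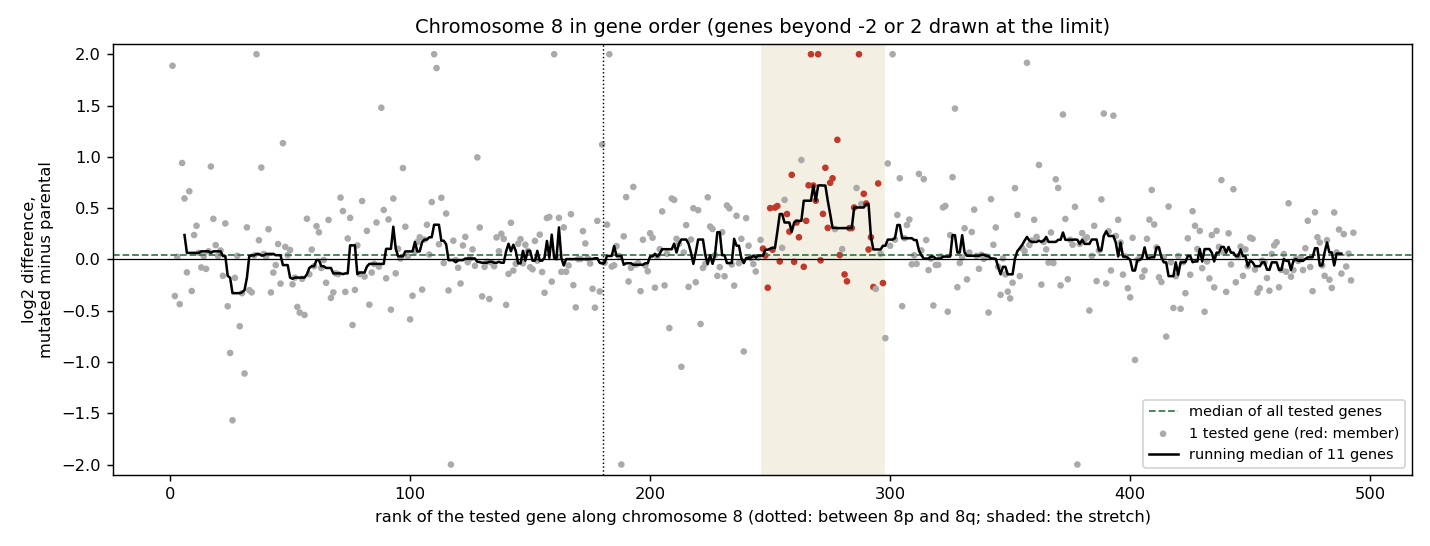
Difference between mutated and parental cells (y axis, log2 scale, values beyond −2 or 2 drawn at the limit) for the 493 tested genes of chromosome 8 by rank along the chromosome (x axis), with the running median of 11 genes as a line and the stretch shaded. The line reaches 0.72 at IMPA1 inside the stretch and 0.34 at FBXO16, its highest point outside it.

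Over a window of 11 tested genes the running median was 0.037 at STAU2, reached 0.72 around IMPA1 and stood at 0.13 at OTUD6B. It first fell to or under the median of all tested genes at CFAP418, the tested gene 17 places after OTUD6B. Elsewhere on chromosome 8 it lay between −0.33, around BLK, and 0.34, around FBXO16. The other 442 tested genes of the chromosome had a median of 0.033, with 31.4% called higher and 16.3% called lower. By part, the median was 0.019 over 180 genes of 8p, 0.041 over 65 genes of 8q before the stretch and 0.049 over 196 genes of 8q after it. Whole-chromosome medians ran from −0.00045 to 0.084 over the 22 autosomes and X, and chromosome 8 with the stretch stood at 0.055.

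With all tested genes divided into 3 equal classes by mean level, the 10 dim members had a median of 0.41, the 13 of the middle class 0.72 and the 19 bright ones 0.27. PMP2, CA13 and MMP16, which passed the filter through their mutated values, are in the dim class and FABP4 in the middle one. Without these 4 the medians were 0.094 over 7 dim members and 0.63 over 12 of the middle class. All tested genes of those classes had medians of 0.0060, 0.084 and 0.033. Of the members called, 87.5% were higher, and 86.7% and 85.7% were with quantile normalization and median centring. Over all tested genes that share was 61.5%, 49.4% and 46.1%, so the balance of calls over the whole array depends on the scaling.

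The arrays carried the defining genes of the labelled cell type. Of 8 B cell markers, 7 had a probe set and all 7 were tested, with 3 called higher, 1 lower and 3 not called. Of all tested genes 30.1% were called higher and 18.9% lower. The summed level of these markers was 26476 to 27181 in parental and 26709.5 to 27542 in mutated samples. Of 7 plasma cell markers, 1 was called higher, MZB1 (0.48), and 4 lower, TNFRSF17 (−1.89), PRDM1 (−1.59), SDC1 (−0.87) and JCHAIN (−0.48). IRF4 (−0.020) and XBP1 (−0.10) were not called. The sum of the 7 was 17837 to 18467 in parental and 13605 to 14337 in mutated samples. Among 7 T cell markers CD3D, CD3E, CD3G and CD8A did not pass the filter. TRAT1 was called higher (1.81), from a parental mean of 5.40 under the filter limit, and LCK lower (−0.92). The sums of the 7 were 2200.2 to 2299.6 in parental and 1267 to 1288 in mutated samples. Of 6 fibroblast markers 4 did not pass the filter and COL1A1 was called lower (−0.67), with sums of 744 to 832 and 478 to 581. The part of these differences in the values of the stretch was not tested.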

How the data were processed

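The authors deposited 1 intensity per probe set and array on a linear scale, 54613 in all, with array medians from 28.46 to 31.83. The sources used here do not give how probe sets were summarised and arrays scaled, and no detection calls were used. Probe sets with 1 gene symbol in the platform annotation (41091) were named, and 41037 of them matched a gene of the RefSeq table of GRCh38.p14 by Entrez ID. That table gave only names and the order of genes.

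Values were taken as log2(intensity + 16), the dimmest 40% of probe sets by mean over all samples were left out, and group was fitted as the sole term on the rest (limma 3.58.1, R 4.3.3; Benjamini-Hochberg adjustment over all of them). A gene was its tested probe set of highest mean. 8p was taken up to HGSNAT and 8q from SPIDR. The members, gene lists and tests were chosen with earlier results of these data known. Every member is named, with the 10 tested genes on each side, the other tested genes within the stretch, and called relatives of the 2 gene families. The procedure was tested on simulated data.

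Alternatives were quantile normalization, median centring, no filter, the dimmest 60% left out, pseudocounts of 1 and 64, array weights, the replicate number as a block, a trended robust eBayes, the mean over probe sets, no probe sets with the suffixes _s_at and _x_at, and each sample left out.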

Additional observations from a re-analysis of the deposited data

How the results depend on the processing

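The median difference of the members was 0.37. It became 0.32 with quantile normalization, 0.29 with median centring and 0.29 without the filter. It was 0.30 with a pseudocount of 64 and 0.41 with _s_at and _x_at probe sets left out. Minus the median of all tested genes it was 0.33, and 0.34, 0.33, 0.27, 0.27 and 0.36 in these settings in turn. The members' median itself ran from 0.32 to 0.40 when 1 sample was left out. Members called higher, 28, numbered 24 to 30 over the 17 other settings, in which 34 to 50 members were tested. Of all tested genes 18.9% to 37.9% were called higher in these settings. Without 1 sample the count of members was 25 to 27, where 25.2% to 28.8% of all tested genes were called higher. Members called lower, 4, numbered 2 to 4 without 1 sample, where 14.9% to 18.8% of all tested genes were called lower. Members without overlap in the higher direction, 29, then numbered 29 to 31, as a smaller group overlaps less readily. Of all tested genes 38.3% to 40.4% did so then, against 36.3%. The count was 27 with quantile normalization (30.9% of all tested genes) and 28 with median centring (28.0%). It was 25 of 34 tested members with the dimmest 60% left out (42.0%) and 24 of 36 without _s_at and _x_at probe sets (37.5%). Of the called members, 22 higher and 1 lower (TMEM70) kept their call in every setting that tested them, and PI15, SNX16, PEX2, HEY1, DECR1, OSGIN2, ATP6V0D2, OTUD6B and TMEM64 lost it in at least 1. No called member changed sign in these settings. Same-numbered samples correlated in their deviations by 0.11, 0.027 and 0.11, and differently numbered ones by −0.11 to 0.0028. The same-numbered values were the higher ones but small. The numbers were therefore not taken as pairs, although a weak pairing remains possible. With the replicate block the median stayed 0.37, with 27 called higher and 3 lower, as PI15 (0.52) and ATP6V0D2 (−0.21) lost their calls. Of all tested genes 28.1% were called higher and 17.8% lower with that block. The 6 arrays limit the precision, most for dim probe sets. The medians of the 10 genes on either side, and the values minus the median of all tested genes, were added to these settings after the data were seen.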
